A study of Mus musculus with 6 samples.

Results

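The collagen genes were the rows of the count table whose symbol has the form Col, a type number, the letter a and a chain number. There were 44 of them among 32285 gene rows, and 39 had enough counts to be tested. By structure, 11 encode chains of fibrillar collagens, 6 encode the type IV chains of basement membranes and 27 encode chains of other collagens. GS (germline stem) cells are spermatogonia of the mouse kept in culture with their stem cell activity, and they grow on mouse embryonic fibroblasts (MEFs) as feeders, so a library can hold RNA of both kinds of cell. The cells were stored frozen for 6 months on the International Space Station (3 libraries titled Space) or on Earth (3 libraries titled Ground). RNA was taken on the day after thawing, without a passage. The study does not state whether feeder cells in a library had been stored frozen or were plated after thawing. Both groups were GS cells of the DBA/2 strain, of the genotype DBA/Tg14(act-EGFP-OsbY01), which carries an EGFP transgene, from the testes of pups 2 to 3 days old, and both were frozen and thawed, so no unfrozen group enters the comparison.

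Collagens are secreted or membrane proteins built from 3 chains that wind into a triple helix, and many are trimers of chains from different genes. Fibrillar collagens such as types I, III and V form the fibres of connective tissue and are made in quantity by fibroblasts. Type IV collagen forms the sheet-like network of basement membranes, on which spermatogonia rest in the testis. The remaining types decorate fibrils, form beaded filaments or networks, or span the cell membrane.

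The libraries held between 19015985 and 24110916 counts, of which 16837 to 22529 fell on collagen genes. The treatment label of all 6 samples says the opposite of the title, so each direction given here follows the titles. The libraries were most alike in pairs that crossed the groups: Space-3 was most like Ground-1, Space-2 most like Ground-2 and Space-1 most like Ground-3. The median squared difference of counts over that given by sampling was 1.55, 2.63 and 2.55 in those pairs and 4.99 to 10.4 in the others. No label says that the libraries of a pair share a culture, and the pairs come from the values alone.

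Promoter sequences are shown for the chains with the smallest p-values, for the partner chain of Col4a1 and for Col5a1, the collagen gene with the highest level, because the windows differ in the short motifs they hold. Each is the RefSeq window on GRCm38.p6 from 250 bases before to 50 bases after a transcription start, read 5′ to 3′ on the strand of the gene, and capitals mark every match on either strand to the letters CCAAT (the CCAAT box), GGGCGG (the GC box) or TATAAA (the TATA box). The windows lie at chr6:4505368-4505667 for Col1a2 (plus strand), chr1:45311288-45311587 for Col3a1 (plus strand), chr8:11312777-11313076 for Col4a1 (minus strand), chr8:11312555-11312854 for Col4a2 (plus strand) and chr2:27886175-27886474 for Col5a1 (plus strand).
Col1a2: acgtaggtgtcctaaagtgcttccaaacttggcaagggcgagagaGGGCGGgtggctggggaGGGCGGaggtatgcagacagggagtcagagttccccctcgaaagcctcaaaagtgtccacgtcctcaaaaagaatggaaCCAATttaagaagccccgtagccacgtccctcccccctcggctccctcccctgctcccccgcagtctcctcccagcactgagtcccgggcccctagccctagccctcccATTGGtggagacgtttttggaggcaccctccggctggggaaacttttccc
Col3a1: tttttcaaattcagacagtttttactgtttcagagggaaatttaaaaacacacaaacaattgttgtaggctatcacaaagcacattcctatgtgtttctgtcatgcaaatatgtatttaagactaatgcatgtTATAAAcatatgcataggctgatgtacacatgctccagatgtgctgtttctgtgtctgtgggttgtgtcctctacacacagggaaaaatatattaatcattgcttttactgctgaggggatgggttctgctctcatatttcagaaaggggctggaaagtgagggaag
Col4a1: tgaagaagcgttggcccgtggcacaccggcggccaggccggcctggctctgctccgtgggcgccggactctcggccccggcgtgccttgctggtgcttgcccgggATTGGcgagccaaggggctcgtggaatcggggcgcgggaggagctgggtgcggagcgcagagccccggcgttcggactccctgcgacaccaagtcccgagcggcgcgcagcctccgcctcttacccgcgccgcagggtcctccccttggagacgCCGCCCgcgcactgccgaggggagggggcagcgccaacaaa
Col4a2: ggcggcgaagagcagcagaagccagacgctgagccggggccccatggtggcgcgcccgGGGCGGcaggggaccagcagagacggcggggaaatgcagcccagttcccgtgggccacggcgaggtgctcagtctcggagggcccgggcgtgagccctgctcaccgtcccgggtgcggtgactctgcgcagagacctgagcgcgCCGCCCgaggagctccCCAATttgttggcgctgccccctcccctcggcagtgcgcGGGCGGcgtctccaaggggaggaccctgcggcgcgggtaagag
Col5a1: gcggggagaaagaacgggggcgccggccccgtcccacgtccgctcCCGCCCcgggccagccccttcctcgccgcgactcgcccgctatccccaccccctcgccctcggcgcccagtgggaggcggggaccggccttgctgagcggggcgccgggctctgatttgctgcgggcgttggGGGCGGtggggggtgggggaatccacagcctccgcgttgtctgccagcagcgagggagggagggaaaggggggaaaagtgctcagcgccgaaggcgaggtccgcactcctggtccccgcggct

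The Col1a2 window held 2 matches to CCAAT and 2 to GGGCGG. The Col3a1 window held only 1 match to TATAAA among these motifs. Col4a1 and Col4a2 are transcribed in opposite directions from starts 21 bases apart, and their windows shared 78 bases, in which 1 match to GGGCGG lies and so appears on both lines. Over the 38 windows of 35 collagen genes, CCAAT or its complement ATTGG was in 13 (34.2%), against 37.4% of all 32851 windows in the table. GGGCGG or CCGCCC was in 23 (60.5%), against 35.7% of all windows. TATAAA or TTTATA was in 5 (13.2%), against 13.6% of all windows. A match is a match of letters and does not show that a factor binds there.

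Levels are given as CPM, the counts of a gene scaled to a common library size. A few collagens held most of the signal. Per kilobase of exon, Col5a1 (ENSMUSG00000026837), which encodes the main chain of type V collagen that nucleates type I fibrils, was highest with a mean of 32.0 CPM per kilobase over the 6 libraries. Col1a1, the major chain of type I collagen, had 17.5 CPM per kilobase. Col18a1, which encodes the basement membrane proteoglycan that yields endostatin, had 13.5, and Col13a1, a transmembrane collagen of adhesion sites, had 13.0. The next gene, Col2a1, had 3.41 CPM per kilobase. Fibrillar chains made up 51.9% to 54.5% of the collagen signal per kilobase, and type IV chains made up 4.32% to 5.39%.

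At the other end, 5 genes had too few counts to be tested and are given as counts. Col4a6 had 9, 1 and 3 counts in Ground-1, Ground-2 and Ground-3 and 8, 7 and 14 in Space-1, Space-2 and Space-3. Col4a4 had 4, 6 and 2 counts in the Ground libraries and 4 in each Space library. Col4a3 had 1, 0 and 0 counts against 2, 1 and 3. These 3 are type IV chains of specialised basement membranes. Col9a1, a cartilage chain, had 2, 0 and 1 counts in Ground and 0 in every Space library, and Col10a1, a marker of hypertrophic cartilage, had 1, 0 and 0 against 2, 0 and 1. A count of 0 allows up to 3 counts, or 0.120 to 0.160 CPM, and these limits cover counting error only. The lowest tested gene was Col24a1, with 22, 18 and 7 counts against 7, 15 and 23.

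**Figure D1:**
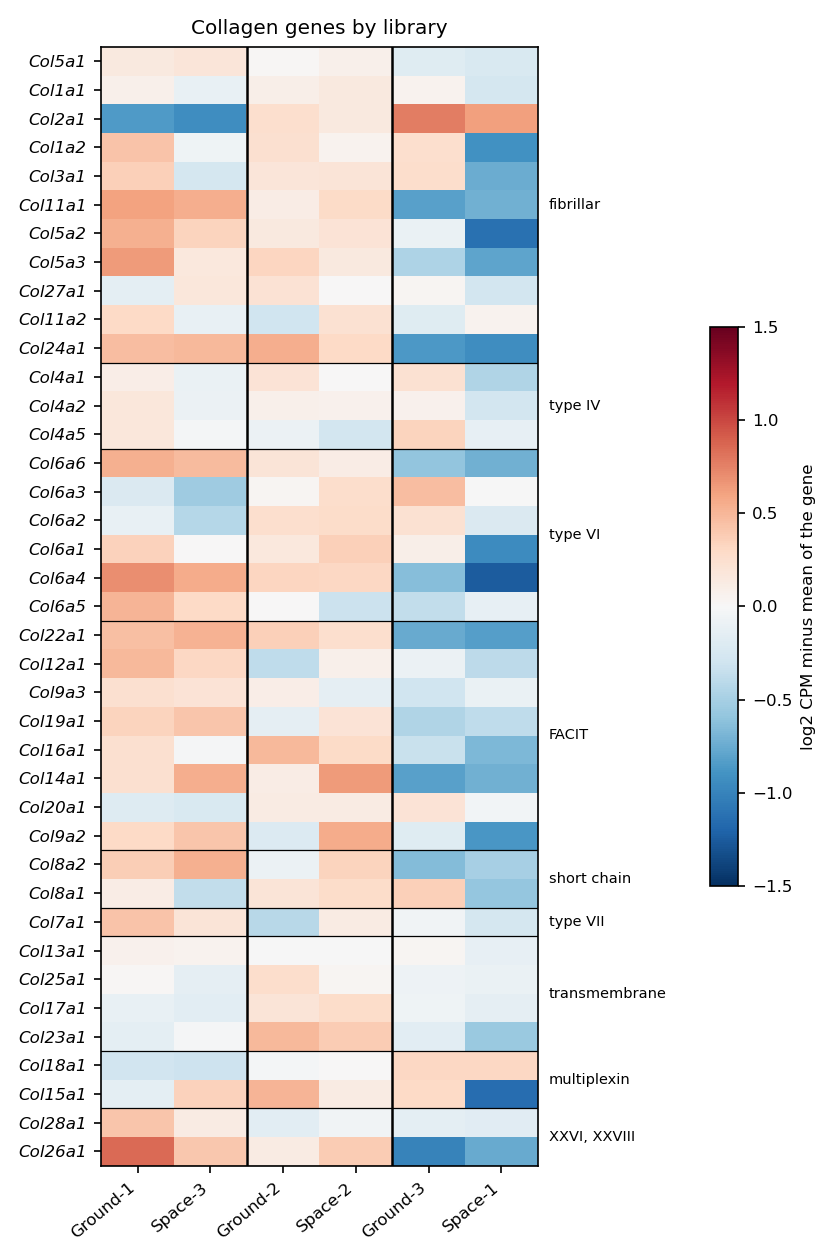
Log2 CPM of the 39 tested collagen genes (rows, grouped by structure) in the 6 libraries (columns), minus the mean of the gene over the libraries. Red is above and blue below the mean, and vertical lines part the pairs of most alike libraries. Most rows change colour between pairs, and Space-1 alone is dark in Col1a2, Col6a1 and Col15a1.

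The comparison of Space with Ground asks whether collagen RNA differed between the groups. It cannot part RNA of stored cells from RNA of feeder cells that may have been plated after thawing. No collagen gene passed the test: edgeR's quasi-likelihood test with Benjamini-Hochberg adjustment over 15104 genes called 0 of 39 at an adjusted p under 0.05, and it called 0% of all genes. The adjusted p was 0.9999 for every collagen tested. An unadjusted p under 0.05 was reached by 3 of 39 collagens (Col1a2, Col3a1 and Col4a1) against 0.609% of all genes, 92 of 15104. Leaving out a library could move that count. It was 1 without Ground-1 (1.05% of all genes), 0 without Ground-2 (0.414%), 1 without Ground-3 (0.582%), 1 without Space-1 (0.622%) and 6 without Space-2 (0.788%). The count without Space-3 is not given. DESeq2 and limma-voom called 0 genes after adjustment as well. At an unadjusted p under 0.05 they each held 3 collagens, against 0.298% of all genes with DESeq2 and 0.583% with limma-voom. These shares, and the 0.609% with edgeR, are far below the share of 0.05 that this threshold gives when no gene differs. The fits without a block were thus conservative, and 0 calls do not show that the groups were equal.

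The log2 fold change was below 0 in 31 of 39 collagens, against 51.3% of all genes, with a median of -0.11 against -0.0020. That count rests on Space-1: without that library it was 19 of 39, against 51.1% of all genes. The estimates ranged from -0.57 to 0.37. The groups did not overlap, with every Space library below every Ground library, in 2 of 39 collagens, Col1a2 and Col4a1, against 1.98% of all genes. Every Space library was above every Ground library in 0 of 39, against 1.61%. No label says that the libraries came from separate cultures, although the submitters call them biological replicates and the study speaks of lines of GS cells, so the p-values measure the spread between these samples.

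With the pairs of most alike libraries as a block, 3 of 39 collagens passed the test and all were lower in Space, against 0.252% of all genes, 38 of 15104. They were Col1a2 (adjusted p = 0.000152), Col3a1 (adjusted p = 0.00151) and Col4a1 (adjusted p = 0.0128). In the same block 6 of 22 tested fibroblast markers passed, all lower in Space, against the same 0.252% of all genes. Without a block 21 of those 22 markers had a log2 fold change below 0, against 51.3% of all genes, with a median of -0.38. In 4 of 22 every Space library was below every Ground library, against 1.98% of all genes. In 13 of 22 Space was lower in all 3 crossed pairs, against 14.8% of all genes. In 16 of 22 Space-1 was at least 0.5 lower than Ground-3 on the log2 scale, against 5.69% of all genes. No count without Space-1 is given for these markers. The block lowered the biological coefficient of variation from 13.9% to 2.78%. The number of collagens that passed moved when a pair was left out, which kept 2 libraries per group. It was 3 without the pair of Ground-1 (1.17% of all genes) and 8 without that of Ground-2 (0.496%). Without that of Ground-3, which holds Space-1, it was 2, Col1a2 and Col3a1 (0.105%). In these fits the smallest adjusted edgeR p over all genes was 7.67e-166, 2.63e-17 and 6.14e-45, against 1.10e-06 with all 3 pairs. With so few libraries, the counts without a pair are not reliable. The pairing was read from the values that were then tested, so these adjusted p-values do not carry the meaning they would have with pairs given by the labels. Within the pairs, 11 of 39 collagens were lower in Space in all 3, against 14.8% of all genes, and 3 (Col8a2, Col14a1 and Col19a1) were higher in all 3, against 13.1%. With the numbers in the titles as a block, 0 collagens passed.

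**Figure D2:**
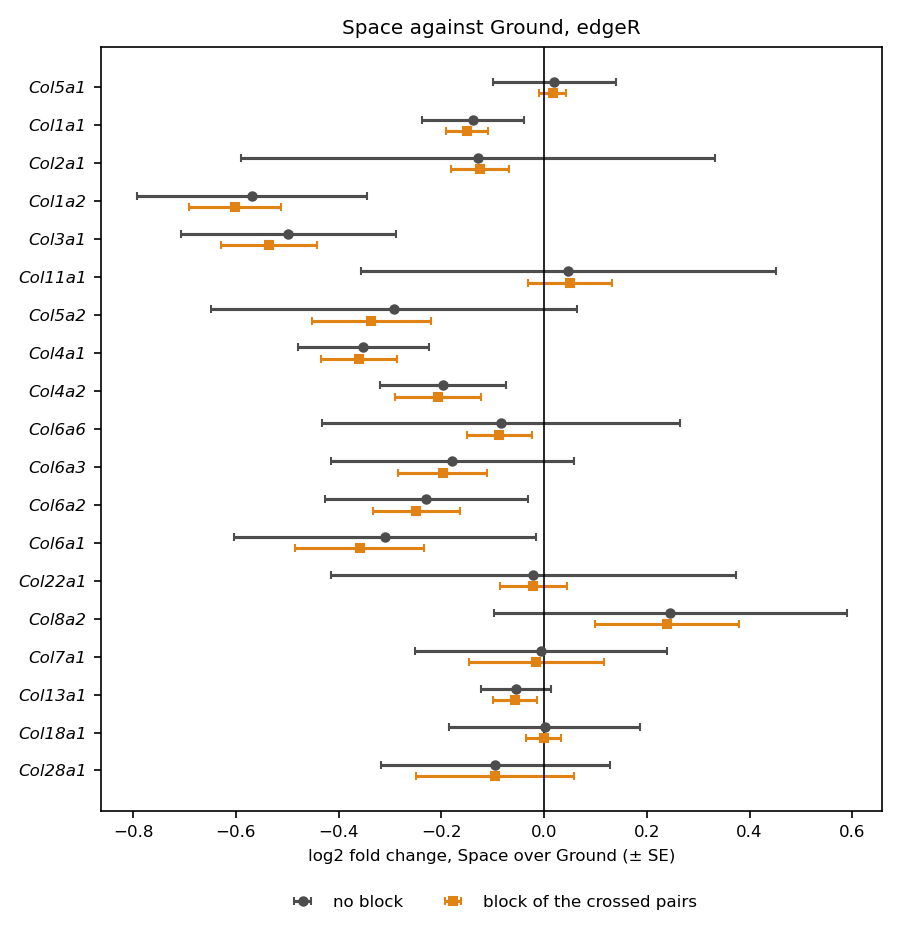
Log2 fold change of Space over Ground with its standard error for 19 collagen genes, without a block (grey circles) and with the crossed pairs of libraries as a block (orange squares). The estimates barely move with the block, as each pair holds a library of each group. The error bars shrink with the block. Its pairs were picked for being most alike, and whether the libraries of a pair share a culture was not tested. Col1a2, Col3a1 and Col4a1 lie farthest below 0.

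Among the fibrillar collagens, 8 of 11 had a log2 fold change below 0, against 51.3% of all genes, with a median of -0.13. Col1a2 (ENSMUSG00000029661, chr6:4504814-4541544 in GENCODE M21), the second chain of type I collagen, had 33.8, 29.7 and 30.0 CPM in Ground-1, Ground-2 and Ground-3 and 13.3, 25.9 and 23.9 CPM in Space-1, Space-2 and Space-3. All Space libraries were below all Ground libraries, and Space-1 was by far the lowest. Its log2 fold change was -0.57 ± 0.22 (SE), and it lay between -0.74 and -0.32 when each library was left out, the smallest change being that without Space-1. Col3a1 (ENSMUSG00000026043, chr1:45311538-45349706), the type III chain of soft connective tissue, had 31.7, 28.0 and 29.8 CPM in Ground and 14.8, 28.3 and 20.6 CPM in Space. Space-2 was level with Ground, and the groups overlapped. The log2 fold change of Col3a1 was -0.50 ± 0.21 (SE).

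Col1a1, the gene for the other type I chain, did not share the size of that difference. It had 120.5, 122 and 118 CPM in Ground and 95.2, 127 and 106 CPM in Space, with Space-2 the highest library of all and Space-1 the lowest. Its log2 fold change was -0.14 ± 0.099 (SE). The ratio of Col1a1 to Col1a2 averaged 3.87 ± 0.274 over Ground and 5.48 ± 1.46 over Space (SD, n = 3). It stood at 7.14 in Space-1 and between 3.56 and 4.88 in the other libraries, and all Space values were above all Ground values. Col5a1 had 298, 273 and 238 CPM in Ground and 230.4, 284 and 306 CPM in Space. The 3 levels of each group were nearly mirrored in the other, and the log2 fold change was 0.020 ± 0.12. Its partner chain Col5a2 had 15.4, 11.8 and 9.86 CPM in Ground and 4.81, 12.2 and 13.3 CPM in Space, again lowest in Space-1, with a log2 fold change of -0.29 ± 0.36. The ratio of Col5a1 to Col5a2 was 47.9 in Space-1 and 19.4 to 24.1 in the other 5 libraries.

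Of the fibrillar chains known from cartilage, Col2a1 and Col11a1 differed more between the crossed pairs of libraries than between the groups, in opposite directions. Col2a1, the type II chain, had 15.8, 34.1 and 48.8 CPM in Ground and 43.9, 31.5 and 14.9 CPM in Space. The levels were low in Ground-1 and Space-3 and high in Ground-3 and Space-1, and the log2 fold change between the groups was -0.13 ± 0.46. Col11a1, a type XI chain that joins type II fibrils, had 20.4, 14.5 and 7.58 CPM in Ground and 8.07, 16.3 and 19.5 CPM in Space. It ran the opposite way over the pairs, and its log2 fold change was 0.047 ± 0.40. Col11a2, the other type XI chain, had 2.80, 1.81 and 1.97 CPM in Ground and 2.35, 2.66 and 2.08 CPM in Space, and its levels did not follow the pairs. A list of 6 other cartilage markers summed to 17.9 and 17.4 CPM in Ground-1 and Space-3. It summed to 9.42 and 10.5 CPM in Ground-3 and Space-1, the direction of Col11a1 and the opposite of Col2a1. The part of this list in these levels was not tested.

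**Figure D3:**
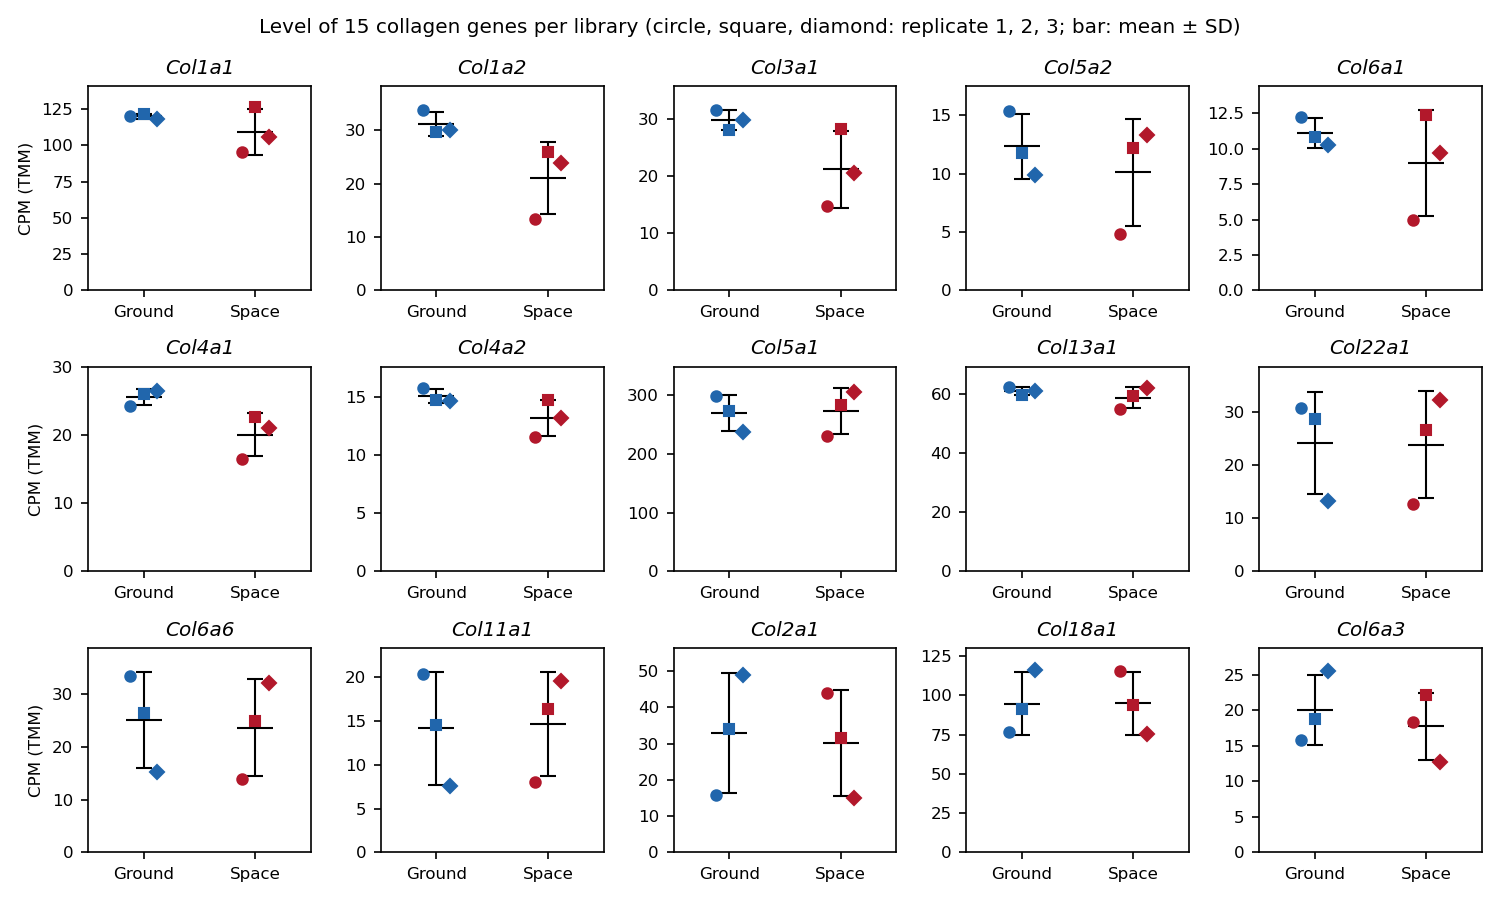
CPM of 15 collagen genes in each library, with circle, square and diamond for replicates 1, 2 and 3 and bars for the mean and SD of each group (n = 3). In Col1a2, Col3a1, Col5a2, Col6a1 and Col4a1 the circle of Space-1 is lowest, while in Col22a1, Col6a6, Col11a1, Col2a1 and Col18a1 the order of the replicates is reversed between Ground and Space.

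The basement membrane chains tested were 3 of 6. All 3 had a log2 fold change below 0, against 51.3% of all genes, with a median of -0.30. Col4a1 (ENSMUSG00000031502, chr8:11198423-11312826), which with Col4a2 forms the common type IV trimer, had 24.3, 26.1 and 26.5 CPM in Ground and 16.5, 22.7 and 21.1 CPM in Space. The groups did not overlap, and Space-1 was again the lowest library. Its log2 fold change was -0.35 ± 0.13 (SE) and stayed between -0.45 and -0.23 with each library left out. Col4a2 (ENSMUSG00000031503, chr8:11312805-11449287) had 15.8, 14.8 and 14.7 CPM in Ground and 11.6, 14.7 and 13.2 CPM in Space. The groups of Col4a2 met at Ground-3 and Space-2, and the log2 fold change was -0.20 ± 0.12. The ratio of Col4a1 to Col4a2 averaged 1.70 ± 0.142 over Ground and 1.52 ± 0.0863 over Space (SD, n = 3), and the groups overlapped. Exons of the pair overlap on opposite strands in GENCODE M21, only from position 11312805 to 11312826, where both genes start. Without a stated strand setting, reads of that short stretch cannot be assigned to either gene. Col4a5, a chain of specialised basement membranes, had 1.44 to 2.23 CPM and a log2 fold change of -0.30 ± 0.24.

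Type VI collagen forms beaded filaments around cells. All 6 of its chains had a log2 fold change below 0, against 51.3% of all genes, with a median of -0.18. The sign did not hold in every crossed pair: Space-2 was above Ground-2 in Col6a1, Col6a2 and Col6a3. Col6a1 had 12.3, 10.8 and 10.3 CPM in Ground and 4.98, 12.4 and 9.67 CPM in Space. Space-1 was the lowest and Space-2 the highest library, and the log2 fold change was -0.31 ± 0.29. Col6a2 had 13.9, 17.9 and 17.6 CPM in Ground and 12.8, 18.2 and 11.1 CPM in Space, with a log2 fold change of -0.23 ± 0.20. Col6a3, the large chain, had 15.8, 18.8 and 25.5 CPM in Ground and 18.4, 22.2 and 12.8 CPM in Space. Both overlapped between the groups, and Col6a3 differed from Col6a1 and Col6a2 in having its highest level in Ground-3. Col6a6, which encodes an alternative to the Col6a3 chain, had 33.4, 26.4 and 15.3 CPM in Ground and 13.9, 24.9 and 32.1 CPM in Space, so the levels of Ground-1 and Space-3 were above those of Ground-3 and Space-1 whatever the group. Its log2 fold change was -0.084 ± 0.35.

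The FACIT collagens, which attach to fibrils, had 5 of 8 tested genes below 0, against 51.3% of all genes. Col22a1, known from tissue junctions, was the most abundant of them, with 30.6, 28.6 and 13.1 CPM in Ground and 12.6, 26.6 and 32.1 CPM in Space. The same low pair, Ground-3 and Space-1, stood apart, and the log2 fold change was -0.021 ± 0.39. Col8a2, a short-chain collagen of the corneal endothelium, had 6.05, 4.36 and 2.94 CPM in Ground and 3.25, 5.86 and 6.75 CPM in Space. It was higher in Space in all 3 crossed pairs, and its log2 fold change was 0.25 ± 0.34. Col7a1, the anchoring fibril chain of skin, had 8.89, 4.89 and 6.31 CPM in Ground and 5.43, 7.13 and 7.51 CPM in Space, and its log2 fold change of -0.0065 ± 0.24 turned its sign under several alternatives.

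Of the transmembrane collagens, 4 of 4 had a log2 fold change below 0, against 51.3% of all genes, none with an estimate under -0.14. Col13a1 had the smallest standard error of the 19 collagens described by name, with 62.6, 59.6 and 61.2 CPM in Ground and 54.9, 59.6 and 62.1 CPM in Space. Its log2 fold change was -0.055 ± 0.068. Col18a1 had 76.8, 91.4 and 116 CPM in Ground and 116, 93.8 and 75.3 CPM in Space. The levels repeated almost exactly within each crossed pair, and the log2 fold change was 0.0014 ± 0.19. Col28a1 had 3.54 to 5.35 CPM and a log2 fold change of -0.095 ± 0.22. The other 20 tested collagens had mean levels of 0.696 to 7.52 CPM and log2 fold changes of -0.44 to 0.37. Of these, 16 were below 0, against the same 51.3% of all genes.

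Summed over each class, the level of fibrillar collagens averaged 524 ± 30.8 CPM over Ground and 492 ± 63.7 CPM over Space (SD, n = 3). It was 553, 528 and 492 CPM in the Ground libraries and 419.5, 539 and 518 CPM in the Space libraries, so only Space-1 was below the Ground range. Type IV chains summed to 42.7, 42.9 and 43.7 CPM in Ground and 30.3, 39.5 and 36.9 CPM in Space. Here the groups did not overlap, at 43.1 ± 0.526 against 35.6 ± 4.73 CPM, and Col4a1 and Col4a2 carried nearly all of the sum. The other collagens summed to 331, 325 and 317 CPM in Ground and 286, 336 and 315 CPM in Space, or 324 ± 6.81 against 312 ± 25.2 CPM. On the log2 scale the ratios of the group means were -0.28 for type IV, -0.091 for fibrillar and -0.055 for other collagens. Without Space-1 they were -0.17, 0.011 and 0.0049. No test was made of these sums, and the classes share no more than their 6 libraries.

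**Figure D4:**
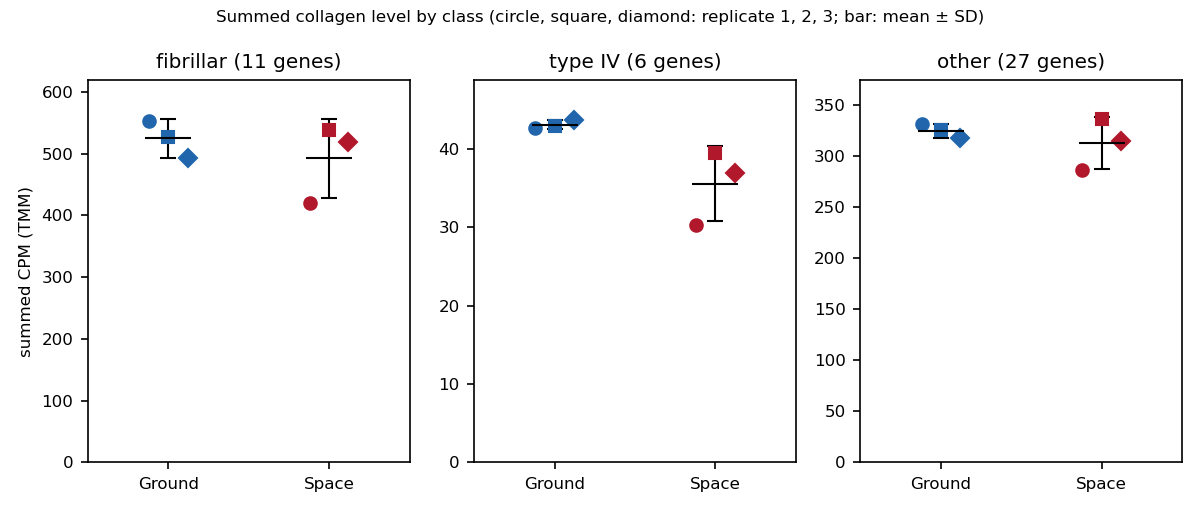
Summed CPM of the fibrillar, type IV and other collagen genes in each library, with circle, square and diamond for replicates 1, 2 and 3 and bars for the mean and SD (n = 3). Type IV sums are below Ground in all 3 Space libraries, fibrillar sums are below Ground only in Space-1, and among the other collagens Space-2 is the highest library.

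The collagens did not move as 1 group over the libraries. In 10 of 39 the mean log2 CPM of Ground-3 and Space-1 was at least 1 below that of Ground-1 and Space-3, against 4.75% of all genes. These were Col5a2, Col5a3, Col6a4, Col6a6, Col8a2, Col11a1, Col14a1, Col22a1, Col24a1 and Col26a1, and the differences reached -1.57 in Col6a4. In 1 of 39, Col2a1, it was at least 1 above, by 1.59, against 1.03% of all genes. Col18a1 and Col6a3 were above by 0.61 and 0.60. A second set was low in Space-1 within its own pair: 9 of 39 collagens were at least 0.5 lower in Space-1 than in Ground-3 on the log2 scale, against 5.69% of all genes. They were Col1a2, Col3a1, Col4a1, Col5a2, Col6a1, Col6a4, Col8a1, Col9a2 and Col15a1, and only Col5a2 and Col6a4 were in both sets. Of the 39, 0 were at least 0.5 higher in Space-1 than in Ground-3, against 3.44% of all genes. Both steps were chosen after the values were seen.

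Markers of the cells in the culture moved with these sets in part. Of 22 tested fibroblast markers, 16 (72.7%) were at least 0.5 lower in Space-1 than in Ground-3, with a median difference of -0.92, against a median of -0.25 for the collagens and 0.0054 for 16 germline markers, of which 0 were that much lower. The fibroblast markers summed to 657, 705 and 744 CPM in Ground and 551, 698 and 569.5 CPM in Space, and none of the 26 in the table was at 0 in all libraries. In bulk RNA, fewer fibroblasts and less RNA per fibroblast cannot be told apart, and the part of fibroblast number in the collagen levels was not tested. The mean log2 CPM of Ground-3 and Space-1 was also set against that of Ground-1 and Space-3. Of the 16 germline markers, 3 (Etv5, Bcl6b and Lhx1) were at least 1 lower in Ground-3 and Space-1, against 4.75% of all genes. Another 1 (Nanos2) was at least 1 higher there, against 1.03%, and the median difference was -0.030. Of the 22 fibroblast markers, 2 (Postn and Acta2) were at least 1 lower there and 1 (Nt5e) was at least 1 higher, with a median difference of -0.25. Bcl6b, a target of GDNF signalling in spermatogonia, had 363, 222 and 59.0 CPM in Ground and 57.5, 217 and 371 CPM in Space. Etv5, another such target, had 259, 202 and 93.0 CPM in Ground and 99.0, 195 and 262 CPM in Space. In both, as in Col22a1, Col6a6 and Col11a1, Ground-3 and Space-1 were the lowest libraries and Ground-1 and Space-3 the highest. Bcl6b and Etv5 were chosen after their values were seen, and whether these transcripts came from the same cells was not tested. Markers of other testis cells, in shorter lists, summed to less than the fibroblast markers. Sertoli markers summed to 25.8 to 30.4 CPM with Fshr at 0, and Leydig markers to 4.16 to 5.04 CPM with Lhcgr and Hsd3b1 at 0. Endothelial markers summed to 26.6 and 26.1 CPM in Ground-1 and Space-3. They summed to 16.0 and 15.9 CPM in Ground-3 and Space-1. Macrophage markers, with C1qa and C1qb at 0, summed to 24.4 and 23.1 CPM in Ground-1 and Space-3. In Ground-3 and Space-1 they summed to 14.9 and 18.0 CPM.

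**Figure D5:**
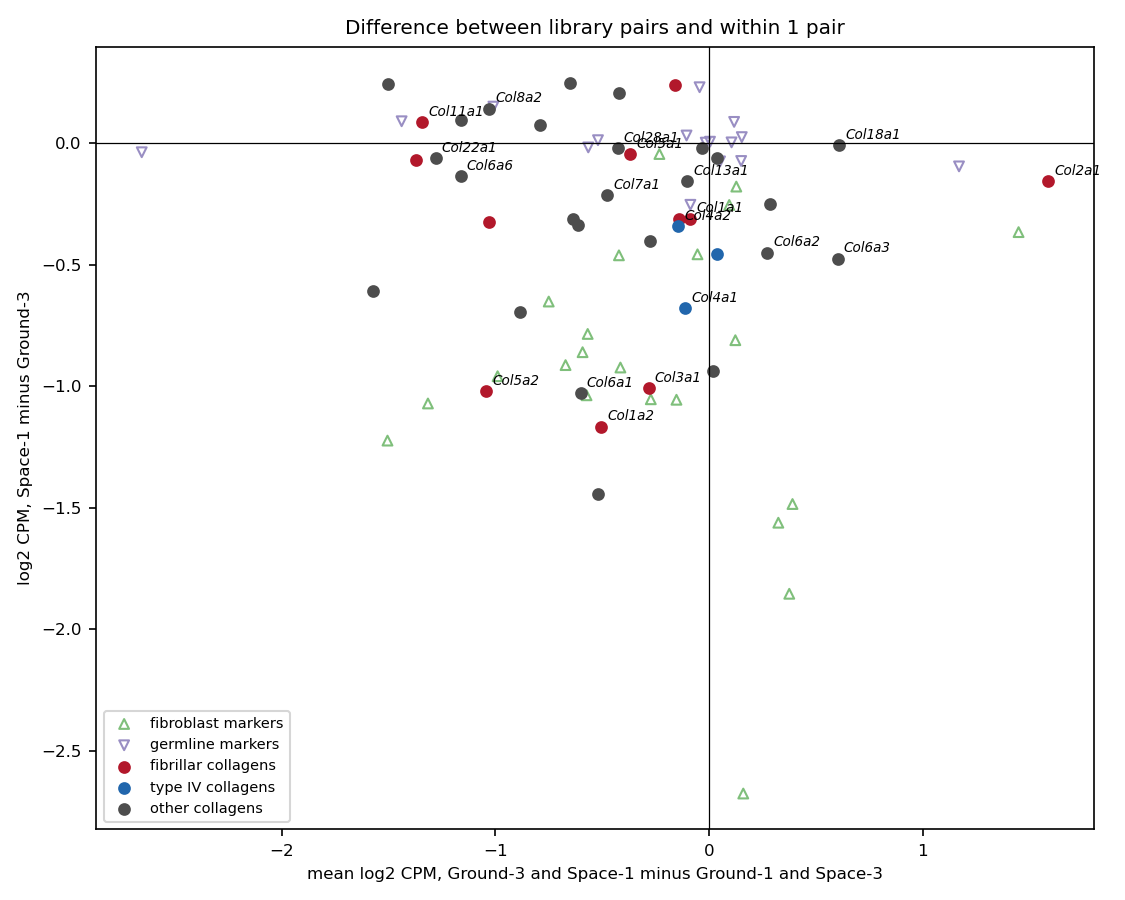
Each point is a gene: the x axis gives the mean log2 CPM of Ground-3 and Space-1 minus that of Ground-1 and Space-3, and the y axis gives log2 CPM of Space-1 minus Ground-3. Fibrillar (red), type IV (blue) and other collagens (dark grey) spread along both axes, germline markers (purple) stay near 0 on the y axis and most fibroblast markers (green) lie below it, where Col1a2, Col3a1, Col5a2 and Col6a1 also lie.

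The genes that make, cut, crosslink and bind collagen gave 0 of 54 tested past the threshold. Of the 54, 40 had a log2 fold change below 0, against 51.3% of all genes, with a median of -0.051. Of the 34 genes of chain modification, folding, export, cleavage and crosslinking, 27 were below 0, against the same 51.3%, with a median of -0.093. No count without Space-1 is given for these genes. Loxl1, a lysyl oxidase that starts crosslinks, had 4.03, 3.78 and 5.04 CPM in Ground and 1.73, 2.88 and 3.00 CPM in Space. Its log2 fold change was -0.76 ± 0.26, and it was the only gene of these lists with an unadjusted edgeR p under 0.05, against the same 0.609% of all genes. Every Space library was below every Ground library in 2 of the 54, Loxl1 and P4ha3, against 1.98% of all genes. P4ha3 had the largest change of these lists, -0.87 ± 0.50, at 0.535, 1.01 and 0.613 CPM in Ground and 0.165, 0.532 and 0.480 CPM in Space. Lox and Loxl2, relatives of Loxl1, were lowest in Space-1, at 2.88 and 1.98 CPM, with 6.44 to 9.79 and 5.12 to 5.84 CPM in the other libraries. Serpinh1, the collagen chaperone HSP47, had 80.2, 75.8 and 104 CPM in Ground and 96.4, 73.1 and 75.2 CPM in Space, a log2 fold change of -0.087 ± 0.15. Bmp1, the procollagen C-proteinase, had 28.2, 18.0 and 10.5 CPM in Ground and 7.20, 16.1 and 26.4 CPM in Space, so Ground-3 and Space-1 were its lowest libraries and Ground-1 and Space-3 its highest, as in Col22a1. Among 8 tested receptors, Ddr2, a receptor for fibrillar collagen, had a log2 fold change of -0.33 ± 0.17. The 12 tested laminins, nidogens and perlecan, partners of type IV collagen in the basement membrane, had a median of -0.0071. Of these, 7 were below 0, against 51.3% of all genes.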

How the data were processed

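The deposited values were raw counts of reads per gene, in 1 table made by the authors and not normalized, with 1 column for each of 6 RNA-seq libraries (3 Space, 3 Ground; grouped by title). Per the labels' processing notes, the tools included bcl2fastq 2.20, cutadapt 4.1, HISAT2 2.2.1 and HTSeq 2.0.2, with the mm10 genome. The labels and the methods of the study name different kits, sequencers and read layouts. The strand setting and the treatment of shared reads are not given in the sources used here, so the 3 collagen genes with exons overlapping a gene on the same strand (Col3a1, Col7a1 and Col20a1) and the 10 with overlap on the opposite strand are uncertain to that extent. All 44 collagen identifiers were in GENCODE M21 (GRCm38), which gave positions and exon lengths, counted from 1.

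Counts were tested in R 4.3.3 with edgeR 4.0.16: filterByExpr (15104 genes left), TMM scaling and the 2-sided quasi-likelihood test without a block, with Benjamini-Hochberg adjustment over all genes and a threshold of 0.05. The standard error is the size of the log2 fold change over the square root of F. Log2 CPM used a prior count of 2. Sums, ratios and pair differences were given without a test. The other settings tried were DESeq2 1.42.0, limma-voom (limma 3.58.1), RLE or no scaling, 2 filters on low counts, replicate blocks, leaving out each library and another class for types XV and XVIII. The procedure was tested on simulated data. Genes were named if their mean was at least 10 CPM, if they led a structural class or if they passed the test in the fit without a block or with the crossed block. The members, lists and alternatives were chosen with earlier results of these data known.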

Additional observations from a re-analysis of the deposited data

How the results depend on the processing

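The count of collagen genes past the threshold was 0 with every other scaling, filter, tool and left-out library, and differed in the replicate block of the crossed pairs, where it was 3. In that block without 1 pair, added after the data were seen, it was 3, 8 and 2 when the pair holding Ground-1, then Ground-2, then Ground-3 was left out, with 1.17%, 0.496% and 0.105% of all genes called. The count of synthesis and receptor genes was 0 of 54 in the full crossed block, and 3 and 2 of 53 (1.17% and 0.496% of all genes) without the pairs of Ground-1 and Ground-2. The fits without a pair kept 2 libraries per group, so their counts are not reliable. The replicate block of the title numbers called 0 collagens. The title numbers did not pair the libraries: the deviations of same-numbered libraries correlated at -0.48, 0.28 and -0.60, against 0.63, 0.28 and 0.60 in the crossed pairs. The count of collagens lower in Space was 19 to 32 with a library left out. The type IV median was -0.13 with no filter, over 6 genes, and the log2 ratio of summed type IV level was -0.082 with types XV and XVIII counted as basement membrane. Without Space-1 the medians were 0.047 for fibrillar and 0.016 for other collagens.

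Of the 19 named collagens, 10 had a log2 fold change that turned its sign under some setting. In the crossed block Col18a1 was -0.000598, and without the pair of Ground-2 Col18a1 was -0.0137, Col11a1 -0.0049 and Col22a1 0.0244. Without the pair of Ground-1 Col28a1 was 0.0414 and Col7a1 0.143, and without that of Ground-3 Col7a1 was 0.0701. Col7a1 was 0.024 with the title-number block and 0.0181 with total counts, which gave 0.0154 for Col22a1. With a library left out the ranges were -0.25 to 0.41 for Col11a1, -0.17 to 0.18 for Col18a1, -0.31 to 0.29 for Col22a1, -0.19 to 0.13 for Col28a1, -0.51 to 0.28 for Col2a1, -0.069 to 0.13 for Col5a1, -0.55 to 0.047 for Col5a2, -0.37 to 0.040 for Col6a3, -0.37 to 0.19 for Col6a6 and -0.18 to 0.25 for Col7a1. The cause of these changes was not tested. With 3 libraries per group and a coefficient of variation of 13.9%, small differences in low genes were not detectable.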
